A study of Mus musculus with 12 samples.

Results

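The genes described here are 8 genes of melanosome transport and biogenesis (Rab27a, Mlph, Myo5a, Myrip, Myo7a, Rab32, Rab38 and Gpnmb), chosen by symbol as a named set, with earlier results of these data known. All 8 were found among the 13942 genes of the deposited table. RNA sequencing was done on retinal pigment epithelium (RPE), the pigmented sheet between the photoreceptors and the choroid, from C57BL/6J mice. There were 4 groups of 3 libraries: postnatal day 5 (P5) Sox9 conditional knockout (cKO), P5 wild type (WT), E15.5 (an embryonic age) cKO and E15.5 WT. The sources used here name neither the Cre line nor the deleted exons of Sox9, and do not say how the RPE was separated or whether replicates were separate animals. Values are gene counts that the authors quantile-normalised, with values under 50 set to 50, and are called normalised counts.

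A melanosome is the organelle in which melanin is made and stored. Rab32 and Rab38 are small GTPases that direct pigment enzymes into the forming organelle, and Rab27a is the small GTPase that marks the mature one for movement on actin. Rab27a binds a linker protein, which in turn binds a myosin motor: in melanocytes the linker is melanophilin (Mlph) and the motor myosin Va (Myo5a), whereas in the RPE the linker is Myrip and the motor myosin VIIa (Myo7a), which carries melanosomes into the apical processes that surround the photoreceptors. Gpnmb is a transmembrane glycoprotein of melanosomes related to the matrix protein Pmel, and is also made by macrophages.

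The promoters of genes that moved together with age, or that hold a match to one of the searched motifs, are shown first. RefSeq windows on GRCm38.p6, reaching 250 bases before to 50 bases after the transcript start, were found for 7 of the 8 genes (9 windows in all). Rab38 had no entry. The motifs searched on both strands were CACGTG, an E-box of the kind that MITF and its relatives bind, TCATGTG, a form of the M-box of pigment genes, AACAAT, a core sequence of SOX proteins, and TAATCC, a core sequence of OTX proteins. Of the 9 windows, 2 held CACGTG, against 7.15% of all 32851 windows, and 1 held TCATGTG, against 3.77%. None of the 9 held AACAAT, present in 10.7% of all windows, or TAATCC, present in 7.06%. The E-box match of Mlph began at base -48 and that of Rab27a, in the later of its 2 windows, at base -246. That Rab27a window lies inside the annotated gene, and the one at the annotated start of Rab27a held none. The match of Myo7a began at base -110 in the more downstream of its 2 windows, inside the annotated gene. The Myo7a window at the annotated start of the gene held none. A match is a description of the letters only. The sequences run from 5′ to 3′ on the strand of the gene, and capitals mark the matches. The Myrip window, which held none, is given because Myrip changed most with age.
Mlph (chr1:90914850-90915149, plus strand): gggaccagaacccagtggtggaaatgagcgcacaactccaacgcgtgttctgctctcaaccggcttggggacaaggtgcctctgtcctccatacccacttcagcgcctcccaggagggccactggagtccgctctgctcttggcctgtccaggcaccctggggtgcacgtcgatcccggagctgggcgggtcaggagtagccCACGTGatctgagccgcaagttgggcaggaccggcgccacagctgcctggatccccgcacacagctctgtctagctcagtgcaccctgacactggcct
Rab27a (chr9:73063898-73064197, plus strand): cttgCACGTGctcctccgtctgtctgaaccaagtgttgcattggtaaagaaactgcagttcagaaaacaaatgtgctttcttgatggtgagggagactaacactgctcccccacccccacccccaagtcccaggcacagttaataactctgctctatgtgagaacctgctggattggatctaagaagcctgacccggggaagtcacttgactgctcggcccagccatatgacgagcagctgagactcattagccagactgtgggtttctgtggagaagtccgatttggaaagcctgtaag
Myo7a (chr7:98109199-98109498, minus strand): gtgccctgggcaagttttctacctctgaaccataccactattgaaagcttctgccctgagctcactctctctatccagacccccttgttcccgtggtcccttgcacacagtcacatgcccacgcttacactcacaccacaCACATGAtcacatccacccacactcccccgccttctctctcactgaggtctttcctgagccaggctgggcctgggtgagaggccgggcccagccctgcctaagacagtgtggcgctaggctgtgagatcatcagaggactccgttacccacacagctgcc
Myrip (chr9:120303823-120304122, plus strand): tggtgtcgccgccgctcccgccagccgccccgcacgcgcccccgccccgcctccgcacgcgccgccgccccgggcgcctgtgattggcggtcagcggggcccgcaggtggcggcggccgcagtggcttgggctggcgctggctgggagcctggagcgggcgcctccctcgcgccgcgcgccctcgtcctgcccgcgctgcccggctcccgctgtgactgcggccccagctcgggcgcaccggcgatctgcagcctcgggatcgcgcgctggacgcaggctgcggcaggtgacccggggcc

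The check of the label gave no fall of the deleted gene. Sox9 averaged 2482 ± 405 in P5 libraries labelled cKO and 1192 ± 277 in P5 WT libraries (normalised count, SD, n = 3), and was higher in those labelled cKO (difference of mean log2 values 1.07 ± 0.17, SE, limma adjusted p = 0.0316). At E15.5 it averaged 1010 ± 22.3 in libraries labelled cKO and 1049 ± 113 in WT libraries (SD, n = 3). Each direction between genotypes below is therefore one between libraries as labelled. The libraries held RPE markers throughout: 9 of 10 markers were in the table, with a summed normalised count of 49868 to 100046 in P5 cKO, 61329 to 119566 in P5 WT, 3583 to 4810 in E15.5 cKO and 5903 to 7749 in E15.5 WT libraries. Photoreceptor markers (12 of 12 in the table) summed to between 3368 and 53394 in P5 cKO and between 3329 and 108283 in P5 WT libraries, against 600 to 607 in E15.5 cKO and 600 to 632 in E15.5 WT libraries. At the floor of 50 for each of 12 genes, the E15.5 sums are near the lowest possible. The highest photoreceptor sum belonged to P5 WT replicate 3, and the highest in P5 cKO to replicate 2. Skeletal muscle markers (10 of 10 in the table) summed to between 29616 and 74581 in P5 cKO and between 14988 and 69034 in P5 WT libraries. At E15.5 they summed to between 38293 and 61732 in cKO and between 37365 and 72607 in WT libraries, above the RPE sums there. The part of muscle in the values of the 8 genes was not tested. In bulk samples fewer cells of a type and less RNA per cell cannot be told apart. All 8 genes were above the floor in all 12 libraries and passed the filter of the test.

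**Figure D1:**
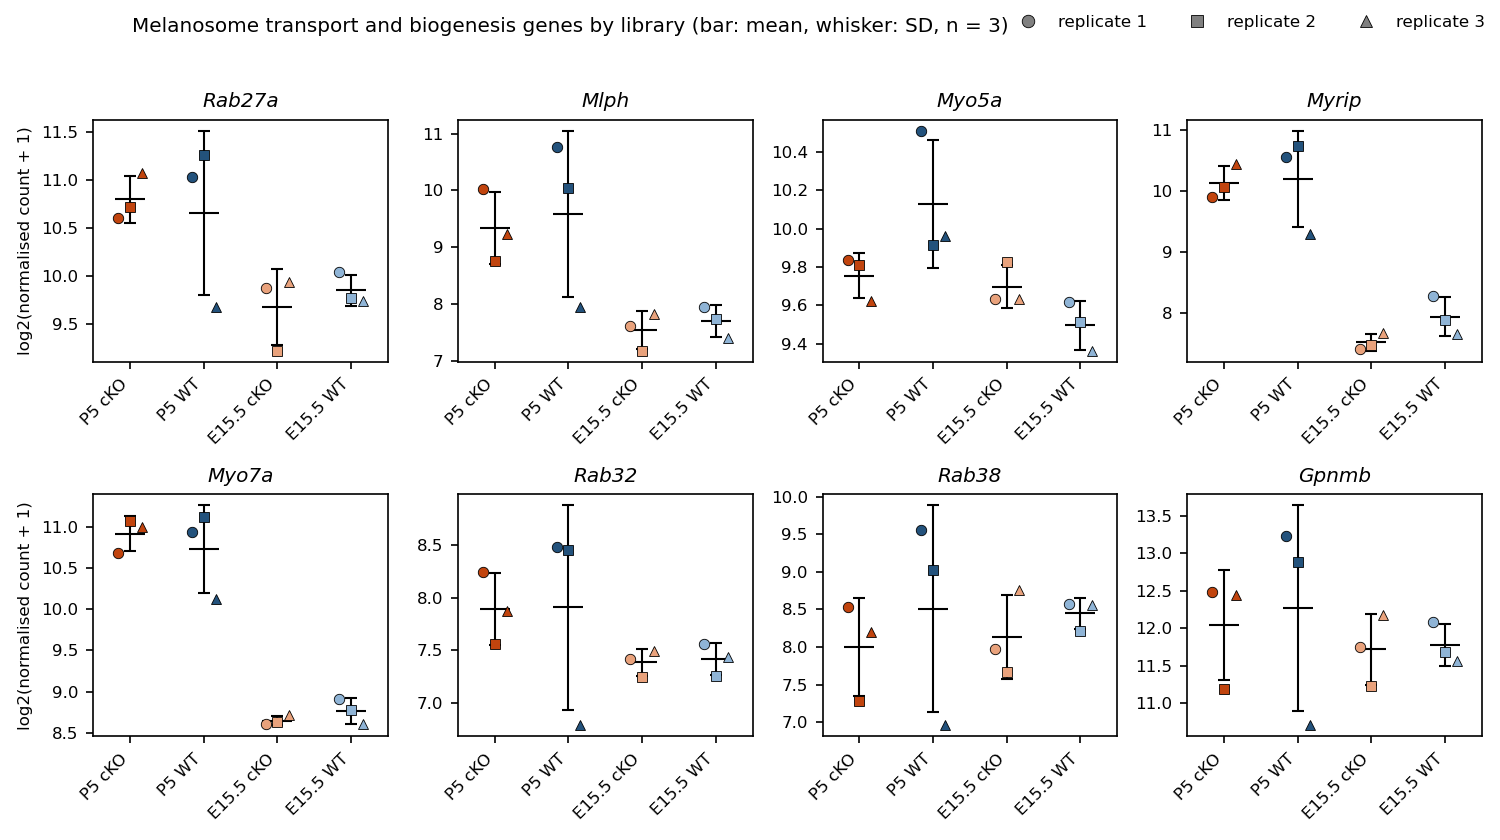
Normalised counts of the 8 genes as log2(value + 1) (vertical axis) in the 4 groups (horizontal axis), with 1 point per library, the shape giving the replicate number, a bar for the mean and whiskers for the SD (n = 3). Myrip and Myo7a separate the ages in both genotypes, while P5 WT replicate 3 is the lowest P5 WT library for 7 of the 8 genes.

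Set per kilobase of exon (the joined exon length of each gene in GENCODE M21), Gpnmb had the highest mean level in all 4 groups and Rab27a the next highest. In P5 libraries Gpnmb averaged 699 ± 294 per kilobase in cKO and 962 ± 631 in WT, and Rab27a 462 ± 80.5 in cKO and 461 ± 221 in WT (normalised count per kilobase, SD, n = 3). In E15.5 libraries the same quantity was 536 ± 171 in cKO and 545 ± 108 in WT for Gpnmb, and 216 ± 54.3 in cKO and 238 ± 28.2 in WT for Rab27a. The libraries of Gpnmb and Rab27a did not overlap at E15.5, but overlapped at P5 in both genotypes.

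The rest of the order changed with age. In E15.5 WT libraries Rab38 (222 ± 30.3 per kilobase) followed, overlapping Rab27a, and Rab32 (72.8 ± 7.61) came next without overlap on either side. Then Myo7a (50.8 ± 5.48), Myo5a (48.9 ± 4.30), Myrip (45.1 ± 10.03) and Mlph (39.2 ± 7.42) followed with each neighbour overlapping the next (SD, n = 3). In P5 WT libraries the order after Rab27a was Rab38 (295 ± 202 per kilobase), Myrip (232 ± 104), Myo7a (206 ± 67.9), Mlph (189 ± 140), Rab32 (116 ± 59.9) and Myo5a (76.9 ± 18.7), and no neighbours were separated (SD, n = 3). In P5 cKO libraries Myo7a (226 ± 31.7 per kilobase) and Myrip (206 ± 41.1) came next after Rab27a, and Myo5a (58.4 ± 4.61) lay below Rab32 (103 ± 24.4) without overlap (SD, n = 3). In E15.5 cKO libraries Myrip was last at 33.2 ± 3.23 per kilobase, overlapping Mlph at 35.4 ± 7.78 (SD, n = 3).

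**Figure D2:**
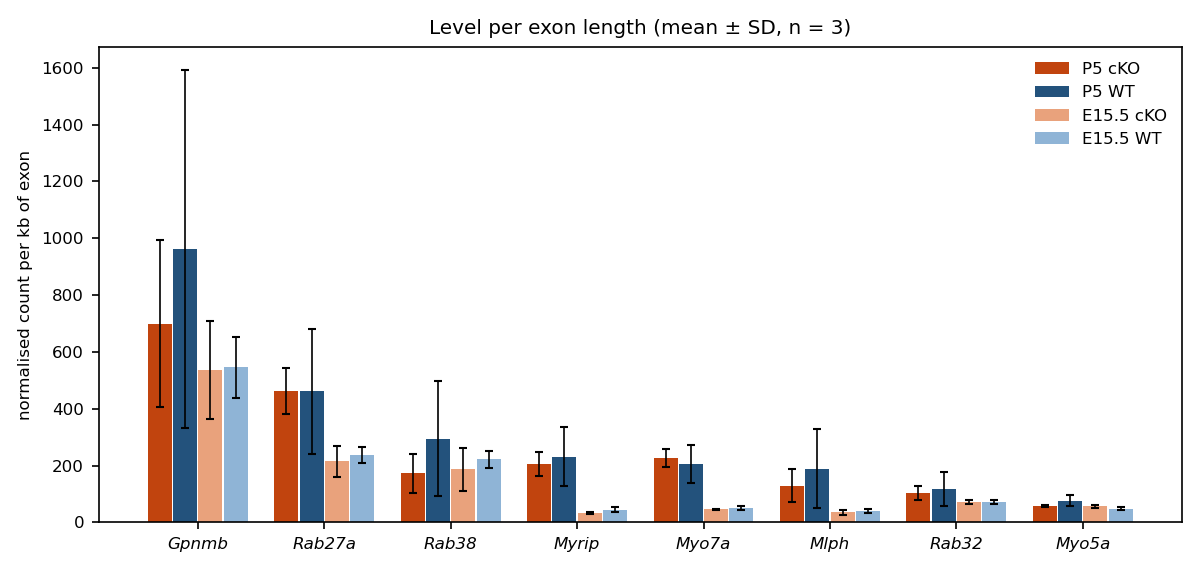
Mean normalised count per kilobase of exon (vertical axis, from 0) for the 8 genes (horizontal axis) in P5 cKO, P5 WT, E15.5 cKO and E15.5 WT libraries, with whiskers for the SD (n = 3). Gpnmb is highest in every group, and the bars of Myrip, Myo7a and Mlph at P5 stand above those at E15.5.

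The comparison of ages asks what changed between E15.5 and P5 within each genotype. The RPE pair of linker and motor, Myrip and Myo7a, rose most, and Mlph rose in both genotypes. Rab27a rose in cKO and Myo5a in WT, while Rab32, Rab38 and Gpnmb did not pass in either. So 4 of 8 genes were called higher and none lower in each genotype, beside 17.6% of all 13523 genes tested called higher and 26.1% called lower in cKO, and 15% higher and 23.2% lower in WT. The median log2 fold change of the 8 genes was 0.81 in cKO and 0.72 in WT, beside -0.08 and -0.07 over all genes tested. At the same time 9 of 12 photoreceptor markers rose with age in each genotype, with a median log2 fold change of 4.68 in cKO and 4.65 in WT, and their part in the changes of the 8 genes was not tested beyond the fits named below. RPE markers also rose (7 of 9 tested in cKO and 8 of 9 in WT), as did endothelial markers (7 of 10 and 10 of 10) and, in cKO, lens markers (10 of 12, against 1 of 12 in WT). Of 7 neural crest melanocyte markers tested, 2 rose and 1 fell in cKO, and 4 rose and 1 fell in WT. The part of these markers was not tested.

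Myrip (ENSMUSG00000041794, chromosome 9, 120301513 to 120474841, GRCm38, plus strand), the linker of Rab27a to myosin VIIa, had 956, 1066 and 1393 normalised counts in P5 cKO libraries against 170, 178 and 204 in E15.5 cKO libraries. In WT it had 1509, 1712 and 625 at P5 against 311, 237 and 202 at E15.5. In both genotypes all P5 libraries lay above all E15.5 libraries. The log2 fold change was 2.61 ± 0.33 (SE) in cKO (adjusted p = 0.00018 by limma), a 6.10-fold rise, and 2.25 ± 0.33 (SE) in WT (adjusted p = 0.000512 by limma), a 4.76-fold rise. The exact permutation test of 3 libraries against 3, two-sided, gave p = 0.1 in each, the smallest that it can give.

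Myo7a (ENSMUSG00000030761, chromosome 7, 98051060 to 98119524, minus strand) encodes the motor that moves melanosomes apically in the RPE and is also present in photoreceptors and in the hair cells of the inner ear. It had 1632, 2148 and 2039 normalised counts in P5 cKO libraries against 388, 394 and 420 in E15.5 cKO libraries. In WT the values were 1957, 2222 and 1109 at P5 against 481, 437 and 388 at E15.5. The ages did not overlap in either genotype. Its rise was 4.80-fold in cKO (2.26 ± 0.22 on the log2 scale with its SE, limma adjusted p = 4.24e-05) and 3.89-fold in WT (1.96 ± 0.22, limma adjusted p = 0.000119). For Myo7a and Myrip the calls held in all alternatives, those without single libraries and with a term for photoreceptor or pigment signal included.

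Mlph (ENSMUSG00000026303, chromosome 1, 90915085 to 90951142, plus strand), the linker to myosin Va whose loss gives the leaden coat colour in mice, had 1039, 432 and 602 normalised counts in P5 cKO libraries against 196, 145 and 227 in E15.5 cKO libraries. In P5 WT libraries it had 1741, 1057 and 247, against 248, 214 and 168 in E15.5 WT libraries. The ages did not overlap in cKO, but P5 WT replicate 3 lay just under the highest E15.5 WT library. The log2 fold change was 1.79 ± 0.59 (SE) in cKO (adjusted p = 0.0311 by limma) and 1.89 ± 0.59 (SE) in WT (adjusted p = 0.0282 by limma). Either call was lost when any of several single libraries was left out. In cKO these were E15.5 cKO replicates 1, 2 and 3 and P5 cKO replicates 1 and 3, with log2 fold changes of 1.45 to 1.93 without each (adjusted p from 0.0563 to 0.0976 by limma). In WT they were E15.5 WT replicates 1, 2 and 3 and P5 WT replicates 1 and 2, with 1.30 to 2.01 without each (adjusted p from 0.054 to 0.0927 by limma). Without P5 WT replicate 3 the WT value was 2.70 (adjusted p = 0.000216 by limma). In a fit of the 6 WT libraries alone Mlph did not pass (adjusted p = 0.0944 by limma).

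Rab27a (ENSMUSG00000032202, chromosome 9, 73044854 to 73097629, plus strand), the GTPase shared by both transport routes, had 1554, 1675 and 2145 normalised counts in P5 cKO libraries against 938, 594 and 977 in E15.5 cKO libraries. Its WT values were 2094, 2449 and 817 at P5 against 1049, 867 and 854 at E15.5, so that P5 WT replicate 3 lay below all E15.5 WT libraries and the other P5 WT libraries above them. The rise was called in cKO, at a log2 fold change of 1.12 ± 0.36 (SE; limma, adjusted p = 0.0266), while the value in WT of 0.81 ± 0.36 (SE) did not pass (adjusted p = 0.0964 by limma). Without P5 WT replicate 3 the WT value was 1.30 and passed (adjusted p = 0.000874 by limma). In cKO the call was lost without E15.5 cKO replicate 2 (0.89, adjusted p = 0.104 by limma), P5 cKO replicate 2 (1.16, adjusted p = 0.0531 by limma) or P5 cKO replicate 3 (0.98, adjusted p = 0.0927 by limma). The exons of Rab27a share 149 bases with a processed pseudogene not analysed here (Gm27186), so a part of its reads may have been assigned elsewhere. The interaction term, which tests whether the genotypes differ in their change with age, was 0.31 ± 0.50 (SE, adjusted p = 1 by limma).

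Myo5a (ENSMUSG00000034593, chromosome 9, 75071015 to 75223688, plus strand), the motor lost in dilute mice, had 913, 895 and 787 normalised counts in P5 cKO libraries against 794, 907 and 792 in E15.5 cKO libraries, which overlapped. In WT it had 1457, 963 and 994 at P5 against 784, 729 and 658 at E15.5, without overlap. Myo5a thus rose in WT by 0.63 ± 0.16 on the log2 scale (SE; limma, adjusted p = 0.00916), with a value of 0.06 ± 0.16 (SE) in cKO that did not pass (adjusted p = 0.785 by limma). In a fit of the 6 WT libraries alone the rise no longer passed (0.63, adjusted p = 0.0521 by limma), nor did it with a term for pigment signal (0.48, adjusted p = 0.0939 by limma). The difference between the genotypes, tested as an interaction, was -0.57 ± 0.22 (SE), with an unadjusted p of 0.025 and an adjusted p = 1 by limma, so it did not pass over all genes tested.

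The biogenesis genes Rab32, Rab38 and Gpnmb were not called with age in either genotype. Rab32 (ENSMUSG00000019832, chromosome 10, 10545002 to 10558265, minus strand) had 301, 188 and 234 normalised counts in P5 cKO libraries against 170, 151 and 180 in E15.5 cKO libraries. It had 356, 348 and 110 in P5 WT libraries against 187, 152 and 172 in E15.5 WT libraries. All P5 cKO libraries lay above the E15.5 cKO libraries, whereas P5 WT replicate 3 lay below every E15.5 WT library. The log2 fold changes of 0.50 ± 0.38 in cKO and 0.49 ± 0.38 in WT (SE) did not pass. Without P5 WT replicate 3, Rab32 rose by 0.50 in cKO (adjusted p = 0.0312 by limma) and by 1.05 in WT (adjusted p = 0.00151 by limma), in a fit whose estimate of spread is shared by all groups.

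Rab38 (ENSMUSG00000030559, chromosome 7, 88430273 to 88491572, plus strand), the GTPase mutated in chocolate mice, had 371, 154 and 292 normalised counts in P5 cKO libraries against 250, 203 and 430 in E15.5 cKO libraries. It had 752, 519 and 123 in P5 WT libraries against 380, 295 and 376 in E15.5 WT libraries. The ages overlapped in both genotypes, with log2 fold changes of -0.13 ± 0.59 in cKO and 0.06 ± 0.59 in WT (SE). Their 95% intervals, from -1.42 to 1.17 in cKO and from -1.23 to 1.36 in WT, leave room for changes of more than 2-fold either way.

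Gpnmb (ENSMUSG00000029816, chromosome 6, 49036546 to 49070929, plus strand) had 5738, 2341 and 5575 normalised counts in P5 cKO libraries against 3427, 2412 and 4641 in E15.5 cKO libraries. In WT it had 9592, 7536 and 1667 at P5 against 4349, 3280 and 3027 at E15.5. Here too 2 of the P5 WT libraries lay above the E15.5 WT libraries and replicate 3 below them. The log2 fold changes of 0.32 ± 0.59 in cKO and 0.49 ± 0.59 in WT (SE) did not pass, while without P5 WT replicate 3 the WT value was 1.28 (adjusted p = 0.0207 by limma). Markers of macrophages and microglia (14 of 14 in the table) had summed normalised counts of 3746 to 7004 in P5 cKO and 2664 to 7612 in P5 WT libraries, against 2829 to 3080 in E15.5 cKO and 2650 to 3276 in E15.5 WT libraries. Of the 13 tested, 2 were called higher with age in cKO and 1 in WT, and their part in the Gpnmb values was not tested.

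Without P5 WT replicate 3, 5 of 8 genes were called higher with age in cKO and 7 of 8 in WT, beside 22.7% and 20.4% of all genes tested in that fit. The groups of different age did not overlap for 5 of 8 genes in cKO and 3 of 8 in WT, beside 57.9% and 48.7% of all genes tested.

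**Figure D3:**
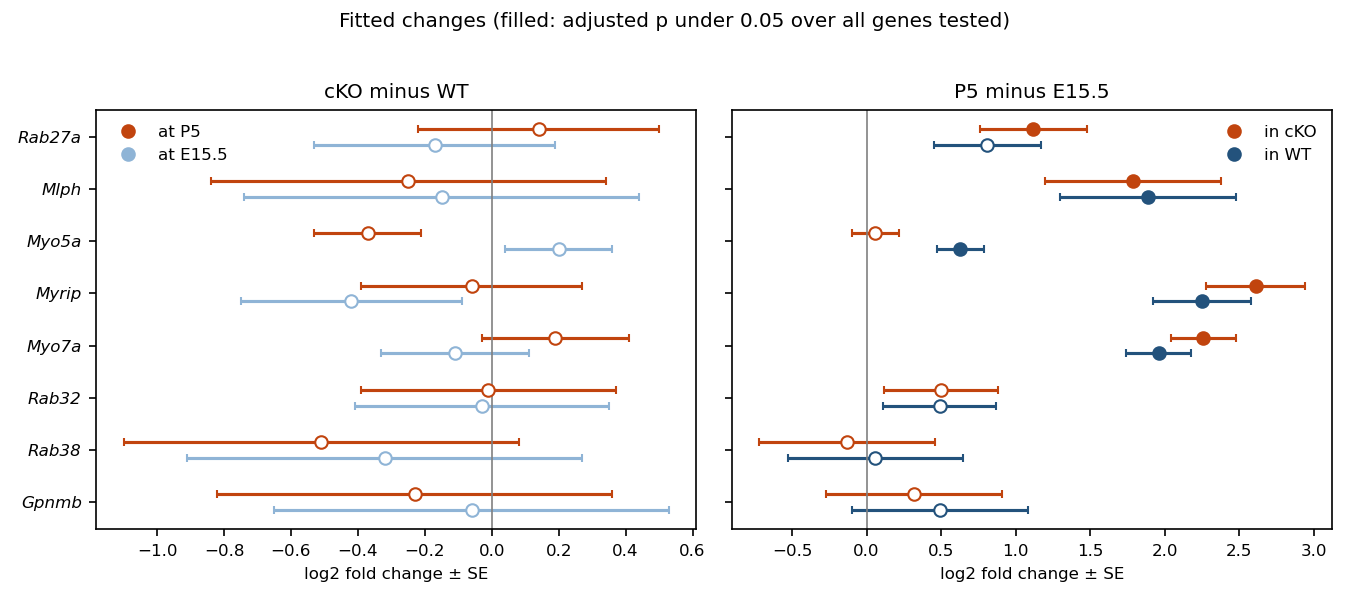
Log2 fold change with its SE (horizontal axis) for each of the 8 genes (vertical axis), cKO minus WT at P5 and E15.5 on the left and P5 minus E15.5 in cKO and WT on the right, filled where the adjusted p was under 0.05. No circle is filled on the left, and Mlph, Myrip and Myo7a are filled in both genotypes on the right.

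The comparison of genotypes asks which genes differ between libraries labelled cKO and WT at each age. None of the 8 genes was called at P5 by limma, beside 0.244% of all genes tested, and none at E15.5, beside 0.00739%. At an unadjusted p under 0.05 there was 1 of 8 at P5, Myo5a, beside 7.68% of all genes tested, and 0 of 8 at E15.5, beside 0.362%. This fit shares 1 estimate of spread between the ages. The median log2 range over all genes tested was 0.22 (cKO) and 0.20 (WT) at E15.5, and 0.44 and 0.60 at P5. So an SE or interval at E15.5 is also set by the spread at P5, and the reverse. Fits of a single age gave an unadjusted p under 0.05 by limma for 2.74% of all genes tested at E15.5 and 2.87% at P5. The 8 genes gave no call under any alternative tried, beside at most 1.71% of all genes tested at P5 and 0.104% at E15.5. The median log2 fold change of the 8 genes was -0.15 at P5 and -0.13 at E15.5, beside -0.02 and 0.00 over all genes tested. At P5, 2 of 9 RPE markers tested were called lower in libraries labelled cKO (median log2 fold change of the 9, -0.58), as was 1 of 9 at E15.5 (median -0.12). Lens markers had a median of 1.20 and skeletal muscle markers of 0.91 at P5, with none called, and the part of these markers was not tested. A missed threshold does not show equal levels. Leaving out single libraries turned the sign of every P5 value but that of Myo5a.

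Of the 8 genes 1, Myo5a, had genotypes that did not overlap, at each age, which 6.18% of all genes tested showed at P5 and 5.10% at E15.5. At P5 the libraries labelled cKO (787 to 913 normalised counts) lay below the WT libraries (963 to 1457), with a log2 fold change of -0.37 ± 0.16 (SE, 95% interval from -0.72 to -0.03, adjusted p = 0.603 by limma). At E15.5 the libraries labelled cKO (792 to 907) lay above the WT libraries (658 to 784), with a log2 fold change of 0.20 ± 0.16 (SE, 95% interval from -0.14 to 0.54, adjusted p = 1 by limma). The exact permutation p was 0.1 at each age. In a fit of the E15.5 libraries alone the SE at that age was 0.09, and Myo5a was not called.

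The linkers Myrip and Mlph and the motor Myo7a were not called at either age. Myrip averaged 1138 ± 227 in P5 cKO and 1282 ± 578 in P5 WT libraries (normalised count, SD, n = 3), with a 95% interval of the log2 fold change from -0.79 to 0.67. At E15.5 it averaged 184 ± 17.9 in cKO and 250 ± 55.6 in WT libraries (SD, n = 3). The log2 fold change there, -0.42 ± 0.33 (SE), did not pass. Myo7a averaged 1940 ± 272 in P5 cKO and 1763 ± 582 in P5 WT libraries (SD, n = 3), with an interval from -0.30 to 0.68, the narrowest at P5 after Myo5a. The interval of Mlph at P5 reached from -1.56 to 1.06.

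Among the GTPases and Gpnmb, Rab38 had the lowest value at P5, -0.51 ± 0.59 (log2 fold change, SE), with means of 272 ± 110 in cKO and 465 ± 318 in WT libraries (SD, n = 3). Its value at E15.5 was -0.32 ± 0.59 (SE). Neither passed, and the 95% interval at P5 ran from -1.80 to 0.79. In fits of a single age the SE of Rab38 was 0.78 at P5 and 0.31 at E15.5. Rab27a at 0.14 ± 0.36, Rab32 at -0.01 ± 0.38 and Gpnmb at -0.23 ± 0.59 (log2 fold change at P5, SE) did not pass either. The interaction of genotype and age was called for none of the 8 genes, beside 0.0592% of all genes tested, with log2 values from -0.57 for Myo5a to 0.36 for Myrip.

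Within P5 the 8 genes differed in how far single libraries departed from their group. P5 WT replicate 3, where the photoreceptor sum was highest, was the lowest P5 WT library for every gene but Myo5a. Set against the mean log2 value of P5 WT replicates 1 and 2, it was lower 5.49-fold for Mlph, 5.10-fold for Gpnmb and 5.03-fold for Rab38. The gap was 3.19-fold for Rab32, 2.77-fold for Rab27a and 2.57-fold for Myrip, and narrower still for Myo7a at 1.88-fold and Myo5a at 1.19-fold. On the log2 scale the median over the 8 genes was -1.57, beside -1.60 for 12 pigment enzyme and melanosome membrane genes, -0.03 for all genes tested and 4.14 for the photoreceptor markers. Markers of the RPE itself were low in the same library too, at -1.32 with 9 of 9 below 0. So were those of macrophages and microglia (-1.31), lens (-1.56), skeletal muscle (-1.48), endothelium (-1.04) and neural crest melanocytes (-1.16). The part of any of these in the values of the 8 genes was not tested.

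In P5 cKO the genes differed as well. Replicate 2, which had the highest photoreceptor sum among cKO libraries, was the lowest for Gpnmb, Rab38, Mlph and Rab32, at -1.27, -1.09, -0.87 and -0.49 on the log2 scale against the mean of replicates 1 and 3. It was not the lowest for Rab27a (-0.12), Myrip (-0.11), Myo5a (0.08) or Myo7a (0.24). In that library the median over the 8 genes was -0.31, beside -0.45 for the 12 pigment enzyme and melanosome membrane genes (10 of 12 below 0) and -0.01 for all genes tested. Markers of endothelium (-0.74, 10 of 10 below 0), macrophages and microglia (-0.49, 13 of 13), lens (-0.63, 10 of 12) and neural crest melanocytes (-0.24, 5 of 7) were low there too. Those of the RPE (0.17) and of skeletal muscle (0.51) were not, and the part of any of these was not tested. Across the P5 libraries of each genotype Rab38, Mlph, Rab32 and Gpnmb followed the reverse order of the photoreceptor signal, whose mean log2 value was 7.69, 11.41 and 10.29 in cKO replicates 1, 2 and 3 and 7.66, 9.03 and 12.25 in WT replicates 1, 2 and 3. The order was not particular to these genes, as the marker means of endothelium, macrophages and microglia, and neural crest melanocytes followed it in both genotypes. Those of the RPE, lens, skeletal muscle and the 12 pigment genes did not follow it in cKO. How many of all genes tested follow it was not counted. The range of a gene over 3 libraries had a median of 0.44 in P5 cKO and 0.60 in P5 WT on the log2 scale over all genes tested, against 1.29 and 2.52 for Gpnmb and 0.21 and 0.60 for Myo5a.

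With both P5 libraries of highest photoreceptor signal left out, a choice made after the data were seen, 6 of 8 genes were called higher with age in cKO and 8 of 8 in WT, beside 21.9% and 22.4% of all genes tested in that fit. The cKO minus WT values at P5 were then -0.92 for Rab38, -0.78 for Mlph, -0.59 for Gpnmb, -0.48 for Myrip and Myo5a, -0.41 for Rab32, -0.31 for Rab27a and -0.19 for Myo7a (log2 fold change), and none passed (adjusted p from 0.503 to 0.932 by limma). With a term for photoreceptor signal 7 of 8 genes rose with age in cKO and 8 of 8 in WT, beside 24.7% and 22.7% of all genes tested. That signal itself separates the ages, so such values lean on the slope among the P5 libraries.

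**Figure D4:**
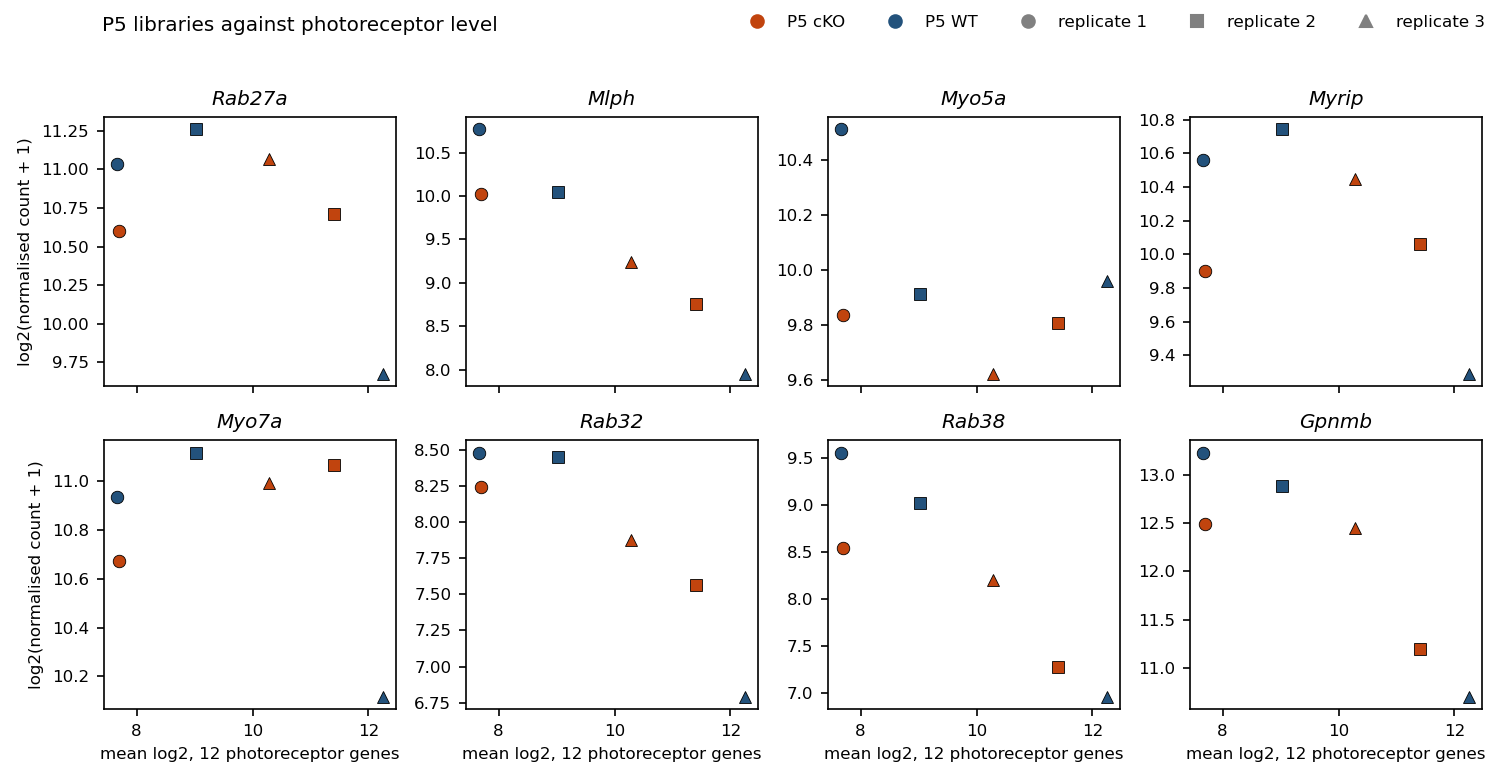
Normalised counts as log2(value + 1) of the 8 genes (vertical axis) against the mean log2 value of 12 photoreceptor genes (horizontal axis) in the 3 P5 cKO and 3 P5 WT libraries. Rab38, Mlph, Rab32 and Gpnmb are lower where the photoreceptor mean is higher within each genotype, while Myo7a is lowest in P5 WT replicate 3 and has no such order in cKO.

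Set against the mean log2 value of the 12 pigment enzyme and melanosome membrane genes in the same library, the genes again fell into groups. Rab27a kept close to that mean, at 0.20 ± 0.26 in P5 cKO, 0.02 ± 0.20 in P5 WT, 0.16 ± 0.16 in E15.5 cKO and 0.22 ± 0.11 in E15.5 WT (difference of log2 values, SD, n = 3). Myrip stood at -0.46 ± 0.30 in P5 cKO and -0.44 ± 0.16 in P5 WT, against -1.99 ± 0.22 in E15.5 cKO and -1.67 ± 0.06 in E15.5 WT (SD, n = 3), so it was higher at P5 relative to the pigment genes too. Gpnmb went the other way, at 1.44 ± 0.49 in P5 cKO and 1.64 ± 0.60 in P5 WT, against 2.21 ± 0.20 in E15.5 cKO and 2.16 ± 0.06 in E15.5 WT (SD, n = 3). In a model with the pigment mean as a term, Myrip rose with age by 1.62 in cKO (adjusted p = 0.000815 by limma) and 1.32 in WT (adjusted p = 0.00168 by limma), and Myo7a by 1.69 (adjusted p = 0.000407 by limma) and 1.42 (adjusted p = 0.000708 by limma).

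The same model turned the direction of Gpnmb and moved Rab38. In that fit 22.2% of all genes tested were called lower with age in cKO and 21.8% in WT. Its pigment mean nearly separates the ages, at 9.22 to 9.89 in E15.5 and 9.75 to 11.14 in P5 libraries. Only P5 WT replicate 3 among the P5 libraries lay within the E15.5 range, so the age values of this model lean on the fitted slope. Gpnmb was lower at P5 by a log2 value of -1.64 in cKO (adjusted p = 0.000443 by limma) and -1.34 in WT (adjusted p = 0.000917 by limma), and Rab38 by -1.98 in cKO (adjusted p = 0.00199 by limma) and -1.66 in WT (adjusted p = 0.00355 by limma). The rise of Rab27a in cKO came to 0.00 (adjusted p = 0.988 by limma), and that of Mlph to -0.10 in cKO (adjusted p = 0.825 by limma) and 0.12 in WT (adjusted p = 0.804 by limma). Those values hold at an equal pigment mean with a slope fitted across the libraries, and differ from the plain difference from that mean, which for Mlph was -1.26 ± 0.50 in P5 cKO and -1.05 ± 0.72 in P5 WT, against -1.96 ± 0.06 in E15.5 cKO and -1.92 ± 0.07 in E15.5 WT (SD, n = 3).

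Of the 12 pigment enzyme and melanosome membrane or matrix genes, 7 rose with age in cKO and 6 in WT, and none fell. Of all genes tested, 17.6% rose and 26.1% fell in cKO, and 15% rose and 23.2% fell in WT. Dct, the dopachrome tautomerase of melanin synthesis, had a log2 fold change of 2.50 ± 0.30 in cKO and 2.11 ± 0.30 in WT (SE). Tyrp1, a further enzyme of the pathway, had log2 fold changes of 2.0 ± 0.43 and 2.13 ± 0.43 in cKO and WT, and the melanosome protein Mlana values of 1.53 ± 0.34 and 1.44 ± 0.34 (SE). No gene of this list was called between genotypes at either age.

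The sorting complexes that serve melanosome biogenesis changed less. Of 20 genes of BLOC and AP-3, which carry cargo from endosomes to the forming melanosome, 4 rose and 2 fell with age in cKO, and 4 rose and 1 fell in WT. These counts stand beside 17.6% of all genes tested higher and 26.1% lower in cKO, and 15% higher and 23.2% lower in WT. The median log2 fold change of the 20 genes was 0.02 in cKO and 0.07 in WT. Hps3, a subunit of BLOC-2, rose by 0.82 ± 0.14 in cKO and 1.06 ± 0.14 in WT, and Bloc1s1 by 0.87 ± 0.16 in cKO and 0.59 ± 0.16 in WT (log2 fold change, SE). Between genotypes no gene of this list was called, with Hps3 at -0.49 ± 0.14 (SE) at P5 (adjusted p = 0.37 by limma).

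Relatives, effectors and regulators of Rab27, Rab32 and Rab38 moved both ways with age. Of 14 genes tested, 2 rose and 2 fell in cKO, and 1 rose and 3 fell in WT. The shares over all genes tested were 17.6% higher and 26.1% lower in cKO, and 15% and 23.2% in WT. Ankrd27, the effector VARP of Rab32 and Rab38, fell by 1.0 in cKO and 0.94 in WT on the log2 scale. Sytl1, a synaptotagmin-like effector of Rab27, fell in both genotypes. It was at the floor of 50 in all P5 libraries, against 140 ± 26.2 in E15.5 cKO and 151 ± 41.9 in E15.5 WT libraries (normalised count, SD, n = 3), so the floor sets the size of its fall. Rab27b, the paralogue of Rab27a, stood at -0.02 ± 0.23 in cKO and -0.39 ± 0.23 in WT (log2 fold change, SE) and was called in neither. Reads of near-identical stretches of paralogues could be shared in the authors' counting.

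Of 13 other unconventional myosins tested, 3 rose and 3 fell with age in cKO, and 2 rose and 2 fell in WT. Myo5b, a relative of Myo5a that moves recycling endosomes, rose by 1.55 ± 0.38 in cKO, and Myo1e by 0.98 ± 0.23 in cKO and 0.79 ± 0.23 in WT (log2 fold change, SE). Of 12 genes of kinesin, dynein and microtubule transport none rose in either genotype, and 2 fell in cKO, Kif3a at -0.59 ± 0.19 and the kinesin heavy chain Kif5b at -0.34 ± 0.12 (SE). Both lists stand beside 17.6% of all genes tested higher and 26.1% lower with age in cKO, and 15% and 23.2% in WT. No myosin or microtubule transport gene was called between genotypes.

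Of 7 genes tested of the MITF family and pigment regulators, 3 rose with age in cKO (Otx2, Tfeb and Sox9) and 2 in WT (Otx2 and Tfeb), beside 17.6% and 15% of all genes tested. Otx2, a homeodomain regulator of RPE and photoreceptors, had log2 fold changes of 2.60 ± 0.45 in cKO and 2.36 ± 0.45 in WT (SE), and the lysosomal regulator Tfeb 2.04 ± 0.26 and 1.67 ± 0.26 (SE). Mitf, the master regulator of pigment cells, stood at 0.81 ± 0.39 in cKO and 0.39 ± 0.39 in WT (SE), called in neither, and it is named here after its values were seen. Between genotypes Sox9 was the one gene called.

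**Figure D5:**
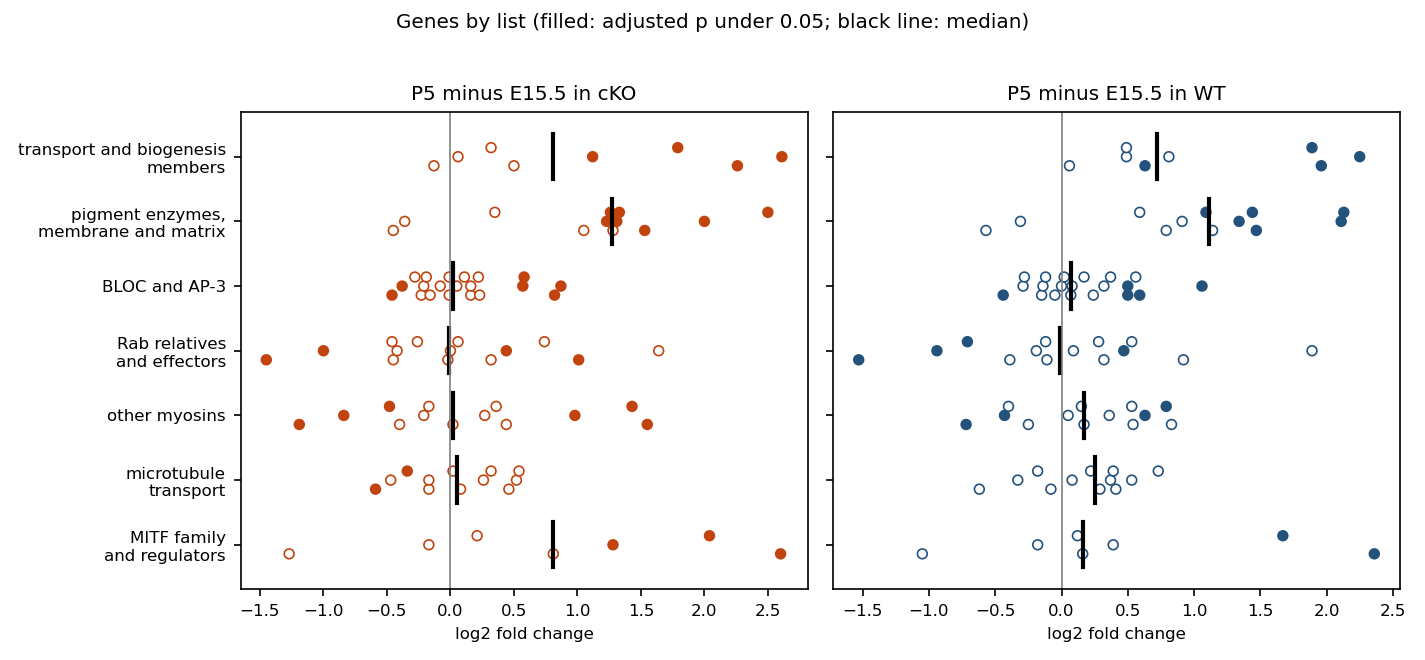
Log2 fold change from E15.5 to P5 (horizontal axis) in cKO and in WT for each gene of 7 lists (vertical axis), filled where the adjusted p was under 0.05, with a black line at the median of each list. The medians of the 8 transport and biogenesis genes (0.81 and 0.72) and of the pigment list (1.27 and 1.12) lie to the right of 0, and those of BLOC and AP-3 (0.02 and 0.07) close to it.

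Genes of the most similar pattern were sought over the 12 libraries, as a description, by Pearson correlation of log2 values. The ages and the shared P5 libraries weigh on all such values. Closest to Rab27a was Oca2, a melanosomal transporter (r = 0.993), and closest to Mlph was Slc45a2, another melanosomal transporter (r = 0.99), followed by Vasn (r = 0.985) and the macrophage receptor gene Csf1r (r = 0.984). Those of Myrip were Adra2c (r = 0.995), Mfsd7c (r = 0.994) and Dct (r = 0.99). For Myo7a the closest were Lims2, Slc6a13 and Trf (r = 0.994 each). Rab32 was closest to Tyrobp, an adaptor of macrophages and microglia (r = 0.968), Rab38 to Evi5 (r = 0.958) and Gpnmb to Atrnl1 (r = 0.974). Myo5a had the least similar partner of the 8 genes, Rapgef2 (r = 0.926).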

How the data were processed

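TopHat2 2.0.10, HTSeq and mm10 are named in the submitters' processing notes. The deposited signal is 1 value per gene and library, a gene count that the authors quantile-normalised with a floor of 50, per the table's name. All 12 columns held the same sorted values, so depth is unknown and no counting error can be given. The sources used here give no annotation release or strand setting.

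Genes above the floor in at least 3 libraries (13523) were tested as log2(value + 1) with limma 3.58.1 in R 4.3.3, with 1 mean per group over 12 libraries and a mean-variance trend, two-sided. The spread of a gene was 1 estimate shared by the 4 groups. P-values were adjusted by Benjamini-Hochberg over all genes tested and called under 0.05. Single genes also had an exact permutation test. The model was tested on simulated data. Alternatives were a pseudocount of 50, no filter or a stricter one, only the libraries compared, library weights, terms for photoreceptor or pigment signal, a replicate block and leaving out libraries.

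The members and lists were chosen with earlier results of these data known. All 8 genes are named, as are, from each list, up to 4 called genes per comparison (or else the 2 of largest change), of which a part is printed, and 3 genes of similar pattern per gene. Labels do not say whether replicates were separate animals, so p-values measure the spread between these samples.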

Additional observations from a re-analysis of the deposited data

Results flagged for a closer look

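Myo5a was marked for a closer look because its genotypes separated in opposite directions at the ages. All 3 libraries labelled cKO lay below all 3 WT libraries at P5 (log2 fold change -0.37 ± 0.16, SE) and above them at E15.5 (0.20 ± 0.16, SE). The difference between these, tested as the interaction, was -0.57 ± 0.22 (SE) with an adjusted p = 1 by limma over all genes tested, in a range of 0.534 to 1 over its alternatives, so a difference between the ages was not called. P5 WT replicate 1 was the highest Myo5a library (1457 normalised counts), and the interaction without it was -0.38.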

How the results depend on the processing

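Between genotypes, and for the interaction, 0 of 8 genes were called under every alternative run. Few of all genes tested were called there either, at most 0.104% at E15.5, 1.71% at P5 and 0.237% for the interaction. Replicate numbers did not pair the libraries throughout. Correlations of same-numbered libraries ranged from -0.336 to 0.783, and at least 1 fell under 0.1 in each comparison. The highest, 0.783, was between replicate 1 of P5 cKO and of P5 WT, which thus departed from their groups alike. With the replicate number as a block, the calls stayed at 0, 0, 4, 4 and 0 genes for genotype at E15.5, genotype at P5, age in cKO, age in WT and the interaction. The shares of all genes tested called there, in the same order, were 0.00739%, 0.133%, 43.4%, 37.5% and 0.0444%. With age in cKO 4 of 8 genes were called. A term for photoreceptor signal gave 7 (24.7% of all genes tested called higher), and leaving out 1 library gave 2 to 5 (13% to 22.7%). With age in WT 4 of 8 were called. Library weights gave 8 (31.1% of all genes called higher and 71% in either direction), a term for photoreceptor signal 8 (22.7%) and, chosen after the data were seen, leaving out both P5 libraries of highest photoreceptor signal 8 (22.4%). The library weights of P5 WT replicates 1, 2 and 3 were 0.454, 5.745 and 0.116, so replicate 2 dominates that group in the weighted fit. The estimation of these weights also stopped before its tolerance was reached. The 6 WT libraries alone gave 2 (10.4%), and leaving out 1 library gave 3 to 7 (10.4% to 20.4%). A term for pigment signal changed which genes were called. Myrip and Myo7a stayed higher in both genotypes, while Gpnmb and Rab38 were called lower in both. Mlph lost its call in both, Rab27a in cKO and Myo5a in WT. Of all genes tested, 17.6% were called higher and 22.2% lower in cKO in that fit, and 17.5% and 21.8% in WT. The cause was not tested.

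The sign of 1 called value turned, that of Mlph with age in cKO under the pigment term, and the other signs that turned belonged to values not called in the report. The term for pigment signal gave, at E15.5 (cKO minus WT), 0.09 for Rab32, 0.04 for Mlph and 0.14 for Gpnmb. For age it gave -0.68 for Rab32, -0.10 for Mlph, -0.11 for Myo5a and -1.64 for Gpnmb in cKO, and -1.66 for Rab38, -0.23 for Rab27a, -0.61 for Rab32 and -1.34 for Gpnmb in WT. Rab32 at P5 (cKO minus WT) was 0.03 with either signal term. Rab27a and Myo7a there were -0.52 and -0.15 with library weights, and -0.31 and -0.19 without both P5 libraries. Rab38 with age in cKO was 1.80 with the photoreceptor term and 0.24 without both libraries. For the interaction, library weights gave -0.20 for Rab27a, -0.58 for Rab32, -0.01 for Myo7a and -0.22 for Myrip, and leaving out both libraries -0.14, -0.38, -0.08 and -0.06 for the same genes. Rab32 there was -0.02 with a pseudocount of 50 and -0.07 with the pigment term.

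Leaving out 1 library at a time moved cKO minus WT at E15.5 between -0.30 and 0.06 for Rab27a, -0.11 and 0.04 for Rab32, -0.30 and 0.03 for Mlph, and -0.29 and 0.18 for Gpnmb. At P5 the ranges were -1.29 to 0.01 for Rab38, -0.35 to 0.44 for Rab27a, -0.57 to 0.27 for Rab32, -1.07 to 0.34 for Mlph, -0.11 to 0.39 for Myo7a, -0.52 to 0.21 for Myrip and -1.01 to 0.25 for Gpnmb. For age, Rab38 ranged from -0.40 to 0.24 in cKO and from -0.46 to 0.84 in WT. The interaction ranged from -0.97 to 0.33 for Rab38, -0.18 to 0.61 for Rab27a, -0.54 to 0.30 for Rab32, -0.91 to 0.49 for Mlph, -0.09 to 0.63 for Myrip and -0.96 to 0.31 for Gpnmb. Depth is unknown, so low values carry no counting limit.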
